A study of Mus musculus with 12 samples.

Results

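The genes examined are 10 genes of cAMP signalling: the adenylyl cyclases Adcy1, Adcy2, Adcy3, Adcy5, Adcy8 and Adcy9, the catalytic subunits of protein kinase A (PKA) Prkaca and Prkacb, and its regulatory subunits Prkar1b and Prkar2b. They were taken by name from the 55413 genes of the mouse annotation. For each, H4K12ac peaks were collected within 2 kb of the transcription start site (TSS, the annotated 5′ end of the gene) and in the rest of the gene, and were compared by genotype. H4K12ac is histone H4 acetylated at lysine 12, and TIP60, encoded by Kat5, is an acetyltransferase that places acetyl groups on histone H4. The question addressed is where along these genes H4K12ac was found in hippocampal neurons, and whether it differed without TIP60.

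The 10 peak lists came from 5 Tip60cKO and 5 control mice, 1 list per mouse, all of them 3 months old and, per the labels, male on C57BL/6J. Tip60cKO mice carried floxed Tip60 on both alleles and the tamoxifen-inducible driver CaMKCreERT2, which acts in excitatory forebrain neurons. Controls carried the floxed alleles without the driver, and mice of both groups received tamoxifen as young adults. Neuronal nuclei of the whole hippocampus were sorted by FACS, so nuclei in which the driver does not act stayed in the Tip60cKO samples, and a partial loss of H4K12ac in every nucleus cannot be told apart from a larger loss in some of them. Peaks of each mouse were called against an input pooled over its own genotype, so a difference between the 2 inputs cannot be told apart from genotype. Of the sorted cell type, 5 to 6 of 6 general neuronal markers and 5 of 5 markers of excitatory hippocampal neurons had a TSS peak in every list, against 0 of 4 for oligodendrocytes, 0 to 2 of 4 for astrocytes, 0 to 1 of 4 for microglia, 0 to 1 of 3 for endothelium and 0 to 1 of 3 for interneurons. The mean TSS rank score of the general neuronal markers was 68.7 to 86.0 in Tip60cKO and 86.9 to 89.4 in controls, without overlap, and that of the excitatory markers 80.2 to 89.5 and 83.1 to 86.6. The part of the neuronal markers in the results was not tested.

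Cyclases make cAMP from ATP when G protein-coupled receptors act on them through G proteins, and Adcy1 and Adcy8 are also stimulated by calcium and calmodulin. cAMP binds the regulatory subunits of PKA and so frees its catalytic subunits, which phosphorylate channels, receptors and the transcription factor CREB. In the hippocampus this pathway is known for its part in long-term potentiation and memory. Acetylated H4K12 is typically found at active promoters and over transcribed genes.

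The libraries held 22864189 to 37077725 tags in Tip60cKO and 27418740 to 37923809 in controls, and the lists held 64245 to 136409 peaks. The mouse with the shortest list, Tip60cKO mouse 5, also had the lowest tag number and the smallest length covered by peaks, 22.6 Mb against up to 65.5 Mb in the other lists. Covered length was lower in Tip60cKO as a group, 43.8 ± 14.0 Mb against 56.4 ± 10.7 Mb (SD, n = 5 each). Differences in TSS coverage at the 10 genes are also given relative to it below, whereas most other coverage values are not. At Kat5 itself, the study's methods place a loxP site on either side of the start codon, and set against the annotated start codon the floxed stretch includes the 2 kb past the TSS. Peaks covered 64.7 ± 17.1% of these 2 kb in Tip60cKO and 57.4 ± 7.33% in controls, with overlapping values. Their highest pileup, the height of stacked fragments at the summit, was 0.744 to 1.03 per 1000000 tags in Tip60cKO and 1.09 to 1.42 in controls, without overlap. The ratio of the means, 0.739, was reached or undercut by 17.1% of the 10444 genes with a peak there in all lists, whose median ratio was 0.827, and 10.1% of them were lower without overlap, so these lists do not check the deletion.

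The stretches of sequence below carry the positions described later (GRCm38, each 5′ to 3′ on the strand of the gene, outside exons of messenger RNAs). They are the promoter of Adcy2, whose TSS coverage differed most between genotypes, and the 5′ and internal promoters of Prkar1b and Prkacb, the genes with a strong internal peak. Capitals mark GC boxes (GGGCGG or CCGCCC) and half-sites of the cAMP response element, CRE (TGACG or CGTCA), the motif bound by CREB. The promoters are credited to RefSeq.
Adcy2 promoter, chr13:68999542-68999791, minus strand: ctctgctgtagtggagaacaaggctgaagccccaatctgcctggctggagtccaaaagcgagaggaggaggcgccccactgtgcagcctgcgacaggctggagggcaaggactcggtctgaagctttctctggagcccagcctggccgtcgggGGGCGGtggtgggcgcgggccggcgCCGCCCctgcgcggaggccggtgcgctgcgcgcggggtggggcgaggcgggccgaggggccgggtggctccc
Prkar1b 5′ promoter, chr5:139150002-139150222, minus strand: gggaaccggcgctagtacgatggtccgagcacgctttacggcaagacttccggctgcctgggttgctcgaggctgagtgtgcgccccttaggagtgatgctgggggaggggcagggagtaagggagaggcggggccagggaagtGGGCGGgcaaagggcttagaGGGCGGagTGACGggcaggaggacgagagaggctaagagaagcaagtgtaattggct
Prkar1b internal promoter, chr5:139129760-139129967, minus strand: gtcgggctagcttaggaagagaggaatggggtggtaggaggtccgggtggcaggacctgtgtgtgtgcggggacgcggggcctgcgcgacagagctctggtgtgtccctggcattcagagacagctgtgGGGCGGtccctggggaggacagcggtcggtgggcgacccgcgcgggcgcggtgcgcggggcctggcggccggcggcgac
Prkacb 5′ promoter, chr3:146812991-146813196, minus strand: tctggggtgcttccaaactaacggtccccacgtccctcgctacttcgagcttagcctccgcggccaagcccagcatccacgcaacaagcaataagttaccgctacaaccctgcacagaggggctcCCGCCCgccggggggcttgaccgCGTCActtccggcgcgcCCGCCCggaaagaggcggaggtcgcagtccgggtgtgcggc
Prkacb internal promoter, chr3:146770262-146770488, minus strand: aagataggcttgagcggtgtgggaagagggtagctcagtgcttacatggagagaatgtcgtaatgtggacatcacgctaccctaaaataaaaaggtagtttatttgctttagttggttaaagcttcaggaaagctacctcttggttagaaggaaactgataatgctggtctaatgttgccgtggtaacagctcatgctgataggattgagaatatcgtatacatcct

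RefSeq promoters, from 250 bases before to 50 after a start, were found for 9 of the 10 genes (18 promoters) and not for Adcy8. The 18 were rich in G and C, with a median GC content of 68.5% against 52.7% over 32817 mouse promoters, and ranged from 38.0% at an internal start of Prkacb to 79.0% at Adcy5. On both strands, GGGCGG was present in 11 of the 18 promoters and in at least 1 promoter of all 9 genes, against 35.6% of all promoters. The CRE half-site TGACG was present in 4 of 18, 1 each of Prkaca, Prkacb, Prkar1b and Adcy9, or 22.2% against 20.8% of all promoters. The full CRE, TGACGTCA, which contains the half-site on both strands, was in none of the 18 and in 1.79% of all promoters. These letter matches are a description of the windows and not of binding.

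The 5′ ends of the 10 genes carried H4K12ac in every mouse. All 10 had a peak in the TSS window in all 10 lists, whereas a peak was present at 28 to 34.8% of all annotated TSS windows. Strength was compared as a TSS rank score, so that lists of different depth share a scale. It is the percent rank within a list (0 to 100, 0 without a peak) of the strongest TSS peak by fold enrichment over background. The median TSS rank score of the 10 was 94.0, against 80.3 over the 21672 genes tested, those with a peak in at least 2 lists. Among the 10 genes the mean over all lists ran from the 51.3rd percentile of tested genes at Prkar1b to the 96.7th at Adcy9.

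No gene of the 10 passed the test between genotypes in TSS rank score. In the limma fit over all genes with Benjamini-Hochberg adjustment, 34 genes (0.157%) were lower and 17 (0.0784%) higher in Tip60cKO, and the adjusted p of the 10 genes lay between 0.347 and 0.982. At an unadjusted p of 0.05, 1 of the 10 (Prkacb) was higher and 0 were lower, against 5.10% and 6.68% of all tested genes. Of the 10, 4 had a lower and 6 a higher mean, against 55.6% and 44.4% of all tested genes, with a median difference of 1.36 points against -0.69. The rank scores of the genotypes overlapped at all 10, whereas 1.62% of tested genes were lower and 1.93% higher without overlap. In fold enrichment over background, the mean of the strongest TSS peak was lower in Tip60cKO at all of the 10 but Adcy8 and Prkacb. This balance was the same after division by the list's median fold enrichment, and the share over all genes is not given here.

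**Figure D1:**
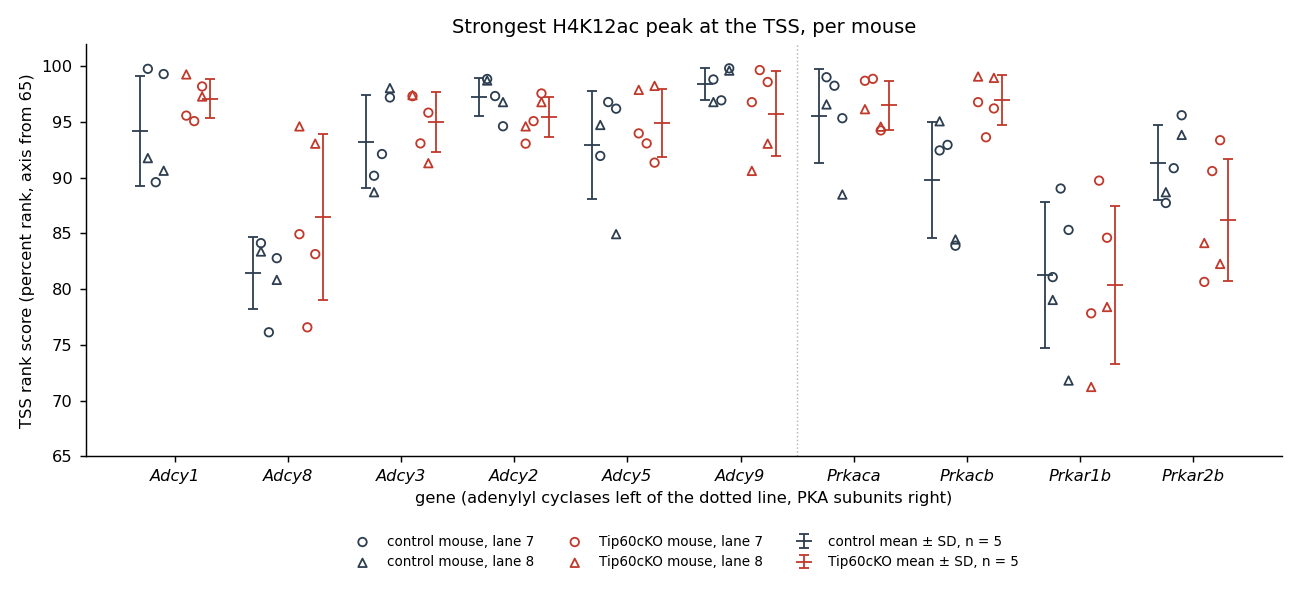
TSS rank score (percent rank within a mouse's list, axis from 65) of the strongest H4K12ac peak at each of the 10 genes. Circles are mice of lane 7 and triangles mice of lane 8, bars give mean ± SD of 5 mice. Prkar1b and Adcy8 sit lowest over all mice, and the values of the 2 genotypes overlap at all 10 genes.

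Prkacb, a catalytic subunit gene (chr3:146729574-146812990, minus strand), had the largest positive difference. Its TSS rank scores were 96.8, 93.6, 96.2, 99.1 and 99.0 in Tip60cKO mice 1 to 5 and 92.5, 92.9, 83.9, 95.1 and 84.5 in control mice 1 to 5. The means were 96.9 ± 2.24 and 89.8 ± 5.19 (SD, n = 5), a difference of 7.17 points (SE 2.71) that did not pass limma's test (adjusted p = 0.347). Control mice 3 and 5 were the low ones, and the highest control value, 95.1, lay within the range of the Tip60cKO mice. Its summit lay upstream of the TSS in all 10 lists, at a median of -236.5 bp.

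Prkar2b, a regulatory subunit gene of type II PKA (chr12:31958476-32061296, minus strand), had the largest negative difference. Its TSS rank scores were 80.7, 90.6, 93.4, 84.1 and 82.3 in Tip60cKO and 87.7, 90.9, 95.6, 88.7 and 93.8 in controls. The difference of -5.14 points (SE 3.00) did not pass limma's test (adjusted p = 0.506). Tip60cKO mice 1, 4 and 5 lay below all controls, and mice 2 and 3 lay among them.

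The lowest means over all lists belonged to Prkar1b, the neuronal type I regulatory subunit gene (chr5:139017306-139150001, minus strand), and to the calcium-stimulated cyclase Adcy8 (chr15:64697084-64922296, minus strand). Prkar1b had 80.4 ± 7.07 in Tip60cKO and 81.3 ± 6.54 in controls. Adcy8 had 86.5 ± 7.43 and 81.5 ± 3.21, and its 2 highest values, 94.6 and 93.1, came from Tip60cKO mice 4 and 5, both on lane 8. Within lane 7 the difference at Adcy8 was 0.536 points and within lane 8 it was 11.7, so lane moved with it. In Tip60cKO alone the mean of Prkar2b, 86.2, was just below that of Adcy8. Prkar1b and Adcy8 did not differ from each other beyond the spread between mice.

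The remaining genes scored 92.9 to 98.4 on average in either genotype. Adcy9 (chr16:4287529-4420498, minus strand), a widely expressed cyclase, had the highest control mean, 98.4 ± 1.45, against 95.7 ± 3.81 in Tip60cKO. Adcy2 (chr13:68620043-68999541, minus strand) had 95.4 ± 1.79 in Tip60cKO against 97.3 ± 1.72. Adcy1 (chr11:7063489-7178506, plus strand), a cyclase known for its part in synaptic plasticity, had 97.1 ± 1.76 against 94.2 ± 4.92, and Prkaca (chr8:83972993-83996443, plus strand) had 96.5 ± 2.20 against 95.5 ± 4.19. Adcy3 (chr12:4133103-4213525, plus strand), a cyclase found in primary cilia, had 95.0 ± 2.70 against 93.3 ± 4.18, and Adcy5 (chr16:35154877-35305738, plus strand) 94.9 ± 3.03 against 92.9 ± 4.84. At Adcy5 the difference was -2.18 points within lane 7 and 8.23 within lane 8, opposite in sign. In fold enrichment over background, the strongest TSS peak averaged from 4.51 ± 0.776 at Prkar1b to 7.72 ± 1.01 at Adcy1 in Tip60cKO. In controls this enrichment ran from 5.12 ± 0.538 at Adcy8 to 9.78 ± 1.57 at Adcy9. Unlike the rank scores, its means were lower in Tip60cKO at Adcy1 (7.72 against 8.45), Prkaca (7.49 against 8.41), Adcy3 (6.99 against 7.53) and Adcy5 (6.97 against 7.46). At Adcy2 the fold enrichment was 6.61 to 7.89 in Tip60cKO and 7.96 to 10.1 in controls. The rank scores of the same gene overlapped, 93.1 to 97.6 and 94.6 to 98.9. The share of all tested genes without overlap in fold enrichment is not given here, so this is a description only. Genotypes were not tested on fold enrichment.

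The extent of H4K12ac was larger at 5 of these 6 cyclases than at these 4 PKA genes. TSS coverage is the share of the 4-kb TSS window that lay in peaks. Its median was 54.9% over the 6 cyclases and 29.99% over the 4 PKA genes, against 17.8% over all tested genes. Adcy3 was the exception among the cyclases, with means of 38.6% in Tip60cKO and 33% in controls, close to the upper ones of the PKA genes (26.1 to 37.2%), and over all lists it lay below Prkaca, 35.8% against 36.3%. The order of the other five over all lists was Adcy5, Adcy1, Adcy8, Adcy2 and Adcy9, with neighbours that overlapped between mice.

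**Figure D2:**
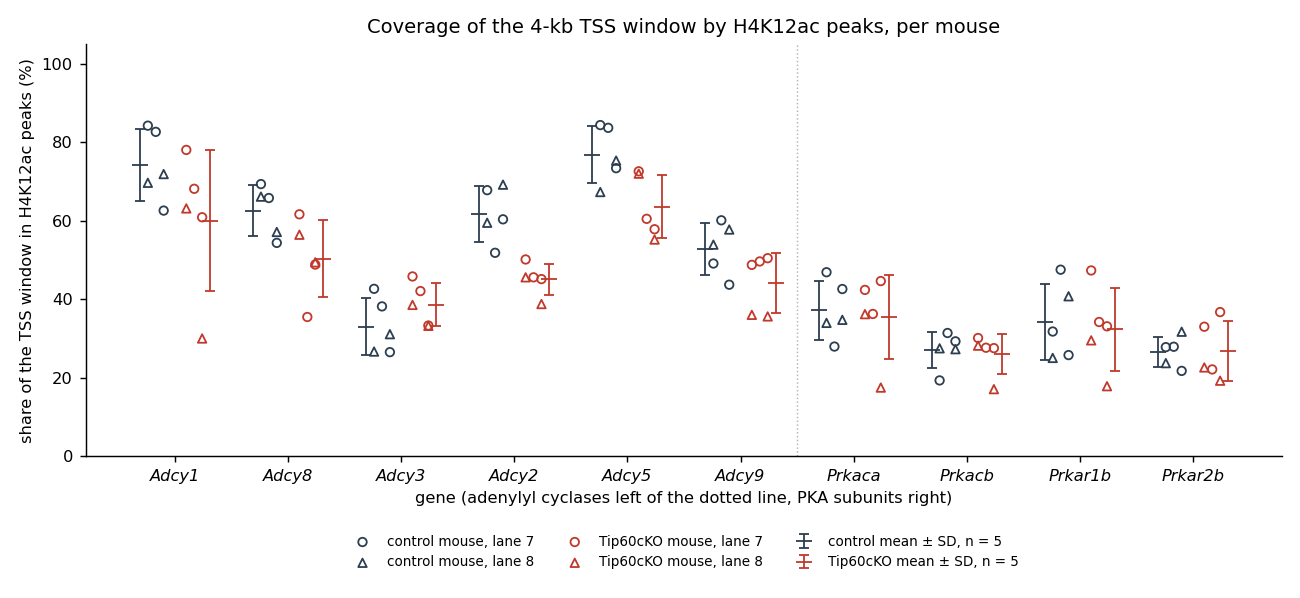
Share of the 4-kb TSS window in H4K12ac peaks (%) per mouse at the 10 genes. Circles are mice of lane 7 and triangles mice of lane 8, bars give mean ± SD of 5 mice. Adcy2 is the gene at which the Tip60cKO values (38.8 to 50.1%) lie below all control values (51.8 to 69.2%), which no longer holds once all lists are limited to equal peak numbers.

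TSS coverage was lower in Tip60cKO at 5 of the 6 cyclases (differences of -16.7 to -8.81 percentage points), and differed by -1.84 to 0.165 points at the 4 PKA genes. The PKA values average opposite signs, 1.77 to 4.80 points within lane 7 and -9.21 to -4.75 within lane 8, where Adcy5 had -7.71 and Adcy8 -8.71. None of the 10 passed limma's test with Benjamini-Hochberg adjustment, where 311 of 21672 genes (1.44%) were lower and 11 (0.0508%) higher. At an unadjusted p of 0.05, Adcy2, Adcy5 and Adcy8 were lower, 3 of 10, and 0 were higher, against 21.4% and 1.20% of all tested genes. A lower mean was found for 8 of the 10 and for 81.0% of all tested genes, so the sign at these genes was that of most genes. The median difference was -12.7 points over the cyclases and -1.3 over the PKA genes, against -4.01 over all tested genes. These points are absolute, and coverage was higher at the cyclases than at most genes. Relative to the control mean, the difference was -27.0 to -16.7% at the 5 lower cyclases and 16.8% at Adcy3. At the PKA genes it was -5.19 to 0.620%. The median coverage of all tested genes was 15.3% in Tip60cKO and 20.2% in controls. The contrast between the 2 sets was not tested. Other members of both families lay on either side. Prkar1a, a type I regulatory subunit gene, had a TSS coverage of 64.0 ± 7.26% in Tip60cKO and 70.3 ± 7.77% in controls, above several of the cyclases, and the cyclase Adcy7 had 2.74 ± 3.78% and 6.06 ± 3.52%. The cyclase Adcy6 had 41.0 ± 7.63% and 45.0 ± 4.46%, whereas Prkar2a had 1.55 ± 3.47% and 6.80 ± 5.68% and Prkx 0% and 3.59 ± 5.02%. The difference was -3.96 points at Adcy6 and -3.32 at Adcy7, and -6.31, -5.25 and -3.59 at the PKA subunit genes Prkar1a, Prkar2a and Prkx.

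Adcy2, a cyclase stimulated by G protein beta-gamma subunits, had the largest difference. The peaks covered 50.1, 45.6, 45.1, 45.6 and 38.8% of its window in Tip60cKO mice 1 to 5 and 67.8, 51.8, 60.4, 59.5 and 69.2% in control mice 1 to 5. Every Tip60cKO value lay below every control value, which held for this gene alone among the 10 and for 5.23% of all tested genes, with 0.157% separated the other way. With the same number of peaks taken from each list the values of Adcy2 overlapped, while its difference stayed negative. The median difference of all tested genes was -3.70 points in that setting against -4.01 with all peaks. The means were 45.0 ± 4.05% and 61.7 ± 7.02% (SD, n = 5), a difference of -16.7 points (SE 4.66) that missed limma's threshold (adjusted p = 0.0744). The difference was -13.0 points within lane 7 and -22.1 within lane 8.

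The window of Adcy2 also holds the starts of 2 noncoding genes, Gm48593 and Gm35161, whose part in its coverage was not tested. The difference lay mainly on the upstream side. In the 2 kb before the TSS the peaks covered 27.5 ± 7.13% in Tip60cKO (20.2 to 35.8%) and 50.3 ± 7.83% in controls (42.0 to 59.7%), without overlap. In the 2 kb after it they covered 62.5 ± 9.78% and 73.2 ± 7.71%, with overlapping values. The share of all tested genes without overlap before the TSS is not given here. Values of either side at equal peak numbers or relative to covered length are not given either. The lack of overlap on the upstream side is therefore a description only. The promoter printed above, with 2 GC boxes and no CRE half-site, lies on that upstream side, and a peak overlapped it in all 10 lists.

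Adcy5, a cyclase inhibited through Gi proteins, had 63.6 ± 8.13% in Tip60cKO and 76.8 ± 7.21% in controls. Upstream of the TSS the peaks covered 34.5 ± 11.5% and 57.3 ± 14.0%, while the downstream 2 kb were nearly filled in both, 92.8 ± 8.47% and 96.3 ± 3.52%. Adcy8 had 50.4 ± 9.85% against 62.5 ± 6.44%, with adjusted p-values from limma of 0.213 at Adcy5 and 0.211 at Adcy8. At both genes the values of the genotypes overlapped.

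Adcy1 had the widest spread in Tip60cKO (SD 18.0), whereas in controls Prkar1b had (SD 9.76 against 9.11 at Adcy1). Its coverage was 78.0, 68.1, 60.9, 63.1 and 30.02% in Tip60cKO and 84.2, 82.6, 62.6, 69.7 and 71.9% in controls. Tip60cKO mouse 5, the mouse with the shortest list, lay far below the other four, and without it the difference went from -14.2 to -6.65 points. Adcy9 had 44.1 ± 7.57% against 52.9 ± 6.62%, a difference of -1.36 points within lane 7 and -20.0 within lane 8. Adcy3 went the other way, 38.6 ± 5.5% in Tip60cKO against 33 ± 7.16%, with overlapping values (adjusted p = 0.438 in limma).

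The PKA genes had short peaks on both sides of the TSS. Prkaca had 35.4 ± 10.7% in Tip60cKO against 37.2 ± 7.49% in controls, Prkacb 26.1 ± 5.15% against 27 ± 4.57%, Prkar1b 32.4 ± 10.6% against 34.2 ± 9.76% and Prkar2b 26.8 ± 7.63% against 26.6 ± 3.91%. Without Tip60cKO mouse 5, which was lowest of all 10 mice at 8 of the 10 genes and at 41.9% of all tested genes, the differences at Prkaca, Prkacb and Prkar1b became 2.63, 1.42 and 1.86 points, opposite in sign.

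Covered length of a list moved with these values, and dividing by it changed the differences. Taking the same number of peaks from each list changed them less. The median difference of all tested genes was then -3.70 points and that of Adcy1 -13.4, and the sign turned at Prkacb only. With coverage expressed per Mb covered by the same mouse's peaks, Adcy2 had 1.12 ± 0.356% per Mb in Tip60cKO and 1.13 ± 0.253% per Mb in controls. Tip60cKO mouse 5 has the smallest divisor, 22.6 Mb, and may carry this near equality. The relative values are not given without it. With all 10 mice the sign turned positive at 7 genes, among them Adcy1, Adcy5, Adcy8 and Adcy9. Whether these turns hold without Tip60cKO mouse 5 is not given here. The median difference of all tested genes went from -4.01 points to 0.0107% per Mb. At the 5 cyclases with lower absolute coverage, the difference relative to the rest of the same list ran from -0.0140 to 0.191% per Mb. At Adcy3 and Prkar2b, which were not lower before, the values were 0.957 ± 0.319% per Mb in Tip60cKO against 0.592 ± 0.104% per Mb and 0.633 ± 0.14% per Mb against 0.479 ± 0.0740% per Mb, and neither passed limma's test (adjusted p = 0.291 at Adcy3 and 0.570 at Prkar2b).

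**Figure D3:**
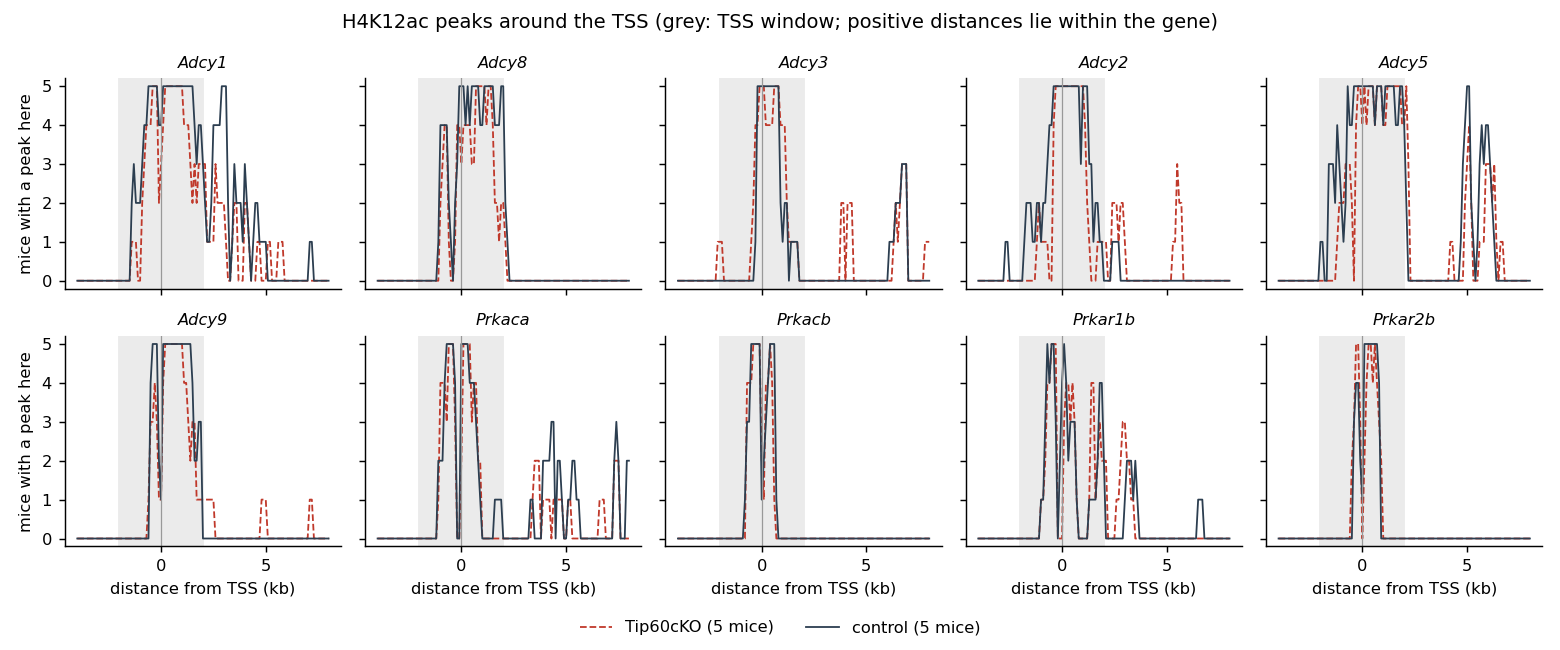
Number of mice (of 5 per genotype) with a peak at each position from 4 kb before to 8 kb after the TSS, in steps along each of the 10 genes. Solid lines are controls, dashed lines Tip60cKO, grey marks the TSS window, and positive distances lie within the gene. Peaks of the cyclases reach farther into the gene than before it, and most PKA genes show a gap at or just before the TSS.

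The position of the acetylation around the TSS also differed between genes. In all 10 lists, coverage was higher after the TSS than before it at the 6 cyclases and at Prkar2b, while this held in 8 lists at Prkaca and Prkar1b and in 1 list at Prkacb. The base of the TSS itself lay in a peak in 10 lists at Adcy2 and Adcy3, in 9 at Adcy5, 8 at Adcy8 and 7 at Adcy1 and Prkaca, but in 4 at Prkar1b, 3 at Prkacb, 2 at Adcy9 and 1 at Prkar2b. The profile of peaks around the TSS shows these gaps, with peaks on both sides. No test was made on these counts, since the lists of a gene share their sequence.

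H4K12ac in the gene bodies, from 2 kb past the TSS to the gene's end, passed the test at none of the 10 genes. In limma with Benjamini-Hochberg adjustment over 12823 genes, body rank score was lower in Tip60cKO at 21 genes (0.164%) and higher at 3 (0.0234%), and body coverage was lower at 17 (0.133%) and higher at 0 (0%). At an unadjusted p of 0.05, 0 of the 10 were lower or higher in either measure, against 6.13% lower and 4.34% higher in rank score and 14.6% lower and 1.29% (165 genes) higher in coverage over all tested genes. The smallest adjusted p of the 10 was 0.533 for rank score and 0.452 for coverage.

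Acetylation along the body ranged widely between the genes. Peaks covered 7.31 ± 2.56% of the Adcy3 body in Tip60cKO and 6.97 ± 1.87% in controls, and 6.39 ± 3.16% and 5.78 ± 2.09% at Prkar1b. Adcy8 was nearly bare, at 0.185 ± 0.119% and 0.275 ± 0.232%, and only 8.48% of tested genes had a lower mean. The long gene Adcy2 (379 kb) had 15 to 55 body peaks per list and 2.87 ± 1.13% coverage in Tip60cKO against 4.08 ± 1.3% in controls.

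Adcy8, Prkaca and Prkar2b each lacked a body peak in a single Tip60cKO mouse. Adcy8 had body rank scores of 70.4, 72.3, 73.9, 68.0 and 0 in Tip60cKO and 80.6, 83.7, 78.2, 86.6 and 79.6 in controls. All its Tip60cKO values lay below all control values, which held for 1 of the 10 genes and for 1.50% of all tested genes, and limma's adjusted p was 0.533. Prkaca had no body peak in Tip60cKO mouse 4 and Prkar2b none in Tip60cKO mouse 2, while both had one in each of the 5 controls. The other seven genes had a body peak in all 10 lists.

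The peaks of the 10 lists were merged into regions, and 225 regions supported by 2 or more lists lay in the 10 genes, of 144781 in the genome. Of these, 16 touched a TSS window and 209 lay in bodies, 174 of them in introns only. Most were sparse, 116 with a peak in 2 or 3 lists. Adcy3 had the densest set, 35.2 regions per 100 kb, and Adcy8 the thinnest, 2.20. The region rank score was lower in Tip60cKO at 112 and higher at 113, so that 49.8% were lower, against 56.9% of all regions.

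In limma with Benjamini-Hochberg adjustment, 1 of the 225 regions was lower in Tip60cKO and 0 were higher, against 0.476% lower and 0.0863% higher of all regions. At an unadjusted p of 0.05, 14 were lower and 7 higher, where 8.34% and 3.68% of all regions were. The share of these genes' regions was thus near that of the genome.

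**Figure D4:**
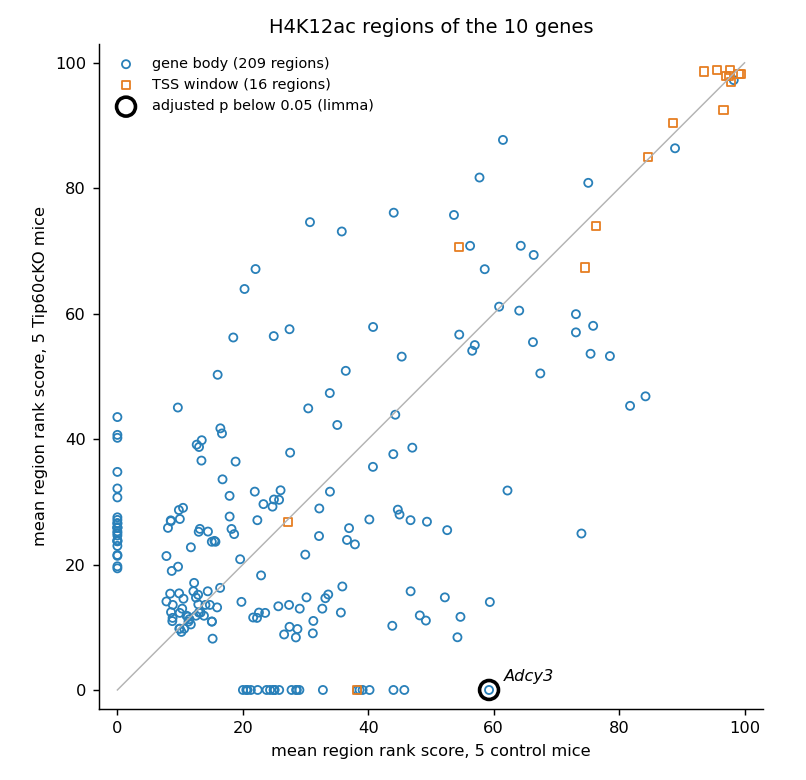
Mean region rank score of the 225 H4K12ac regions of the 10 genes, controls on the horizontal axis and Tip60cKO on the vertical axis (0 without a peak, 5 mice each). Squares touch a TSS window, circles lie in gene bodies, and the diagonal marks equal values. The ringed Adcy3 region has 0 in Tip60cKO and 59.3 in controls, and most regions that touch a TSS window sit at the upper right, with lower ones at Adcy2, Adcy8 and Prkar1b.

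The region that passed lies in an intron of Adcy3. It held no peak in any Tip60cKO mouse, while its rank scores were 52.5, 41.1, 60.4, 64.3 and 78.1 in control mice 1 to 5. The difference of -59.3 points (SE 7.28) had an adjusted p of 0.00299 in limma, and was -51.3 within lane 7 and -71.2 within lane 8. It entered the test through the control peaks alone, and its Tip60cKO values are 0 because no peak reached the authors' threshold. A peak in all 5 control lists and no Tip60cKO list was found at 540 regions of the genome (0.373%), and all 540 passed, so the call follows from that pattern and adds nothing to it.

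The control peaks in the Adcy3 region were low. Their fold enrichment over background was 2.54 to 4.05 and their pileup 12 to 27. Their −log10 q-value was 2.05 to 7.71, where the authors' threshold is at 1. With an empirical Bayes step using trend and robust settings the adjusted p was 0.258, and with the replicate number as a block it was 0.0767, both in limma. With the same number of peaks taken from each list, too few lists kept a peak there for a test. At the TSS of the same gene, all 10 lists had a peak and the mean region rank score was 97.9 in Tip60cKO and 97.4 in controls.

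Body regions present in all 10 lists were few, 4 of 209, and were found at Adcy2, Prkacb and Prkar1b. The Prkar1b region, chr5:139128731-139130803, lies 20.2 kb into the gene, over an internal start shared by 5 annotated transcripts and a further RefSeq start downstream of it. It scored 97.2 ± 1.63 in Tip60cKO and 98.3 ± 0.83 in controls. That was above the 3 regions of the gene's 5′ window, 84.9 ± 9.62 and 84.5 ± 16.4 for the one upstream of the TSS, 74.0 ± 11.9 and 76.3 ± 7.42 for the one over it, and 70.7 ± 13.1 and 54.5 ± 33.2 for one 1.71 kb past it. The 5′ window of Prkar1b also holds the starts of Dnaaf5 and Gm15672, whose part in those scores was not tested. The TSS rank score of Prkar1b is that of the 4-kb window around its annotated 5′ end, which also holds a RefSeq start upstream of that end. Of its other internal starts, that of Prkar1b-202 had no peak within 500 bp in any list, those of Prkar1b-208 and Prkar1b-210 had one in 1 Tip60cKO and 1 control list each, and that of Prkar1b-207 in 1 Tip60cKO list. The RefSeq promoter of the downstream internal start, of which a part is printed above, overlapped a peak in all 10 lists, and those of the 2 starts before it in 4 Tip60cKO and 5 control lists each. At the 5′ end, the promoter of the printed stretch did in 1 Tip60cKO and 5 control lists and the one upstream of it in 4 and 5. Of all 32817 promoters, 0.902% had a peak in at least 4 more control than Tip60cKO lists and 0.110% the reverse.

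Prkacb had a comparable internal region, chr3:146769476-146771423, 42.5 kb from its TSS at the starts of the transcripts Prkacb-203 and Prkacb-204. It scored 86.4 ± 6.81 in Tip60cKO and 88.9 ± 3.22 in controls, below the region at the gene's 5′ end, 98.8 ± 0.956 and 95.6 ± 2.89. The printed stretch of the internal promoter had a GC content of 41.9% and no GC box, against 67.0% and 2 GC boxes in that of the 5′ end. A peak overlapped its printed part in 4 Tip60cKO and 5 control lists. The starts of Prkacb-207 and Prkacb-208 had no peak within 500 bp in any list.

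Both body regions of Adcy2 in all 10 lists were intronic. The stronger, chr13:68622407-68623692, lies near the 3′ end of the gene, 376 kb from the TSS, and scored 80.9 ± 7.08 in Tip60cKO and 75.1 ± 14.7 in controls. The other, chr13:68970957-68972328, lies 27.9 kb from the TSS and scored 69.4 ± 10.5 and 66.4 ± 14.7. Neither passed limma's test (adjusted p = 0.840 and 0.981).

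In the other genes the strongest body region was found in some lists only. At Prkar2b an intronic region at chr12:31984290-31985196, 76.5 kb from the TSS, had a peak in 2 Tip60cKO and 5 control lists and scored 25 ± 34.6 against 74.0 ± 12.6 (adjusted p = 0.287 in limma). At Adcy9 a region 96.0 kb from the TSS had a peak in 1 and 4 lists, and at Prkaca a region over the start of Prkaca-202, 4.36 kb from the TSS, in 3 and 5. At Adcy3, Adcy5 and Adcy1 the strongest body region had a peak in 4 Tip60cKO lists and in 5, 4 and 4 control lists. At Adcy8 it had a peak in 1 and 2 lists.

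No other gene of the pathway passed the test. Of 48 other genes of cAMP signalling (cyclases, PKA subunits and inhibitors, anchoring proteins, phosphodiesterases, G protein alpha subunits and other effectors), 40 were tested at the TSS and 43 in the body, and none passed limma's adjusted threshold in either direction in any of the 4 measures. At an unadjusted p of 0.05, 3 were lower and 1 higher in TSS rank score (6.68% and 5.10% of all tested genes) and 11 and 1 in TSS coverage (21.4% and 1.20%). In the body, 3 were lower and 3 higher in rank score (6.13% and 4.34%) and 4 and 1 in coverage (14.6% and 1.29%). Their median difference in TSS rank score was -0.35 points, and in TSS coverage -6.31 points, against -4.01 over all tested genes. Akap12, a PKA anchoring protein, had the smallest p among those higher in TSS rank score, with a peak in 5 Tip60cKO and 2 control lists and means of 76.4 ± 5.01 and 27.1 ± 37.1 (adjusted p = 0.280 in limma). Gnai3, an inhibitory G protein alpha subunit, had the smallest among those lower, 79.1 ± 6.49 against 88.2 ± 2.81 (adjusted p = 0.347 in limma). Smaller p-values were found in the coverage measures, and these genes were picked after their values were seen. Akap1, an anchoring protein of the outer mitochondrial membrane, had a body coverage of 0.160 ± 0.357% in Tip60cKO against 1.45 ± 0.304% (adjusted p = 0.0649 in limma), with a body peak in 1 Tip60cKO and 5 control lists. Pkia, an inhibitor of PKA, had a TSS coverage of 25 ± 4.51% against 38.9 ± 2.92% (adjusted p = 0.0582 in limma), with every Tip60cKO value below every control value. Of the 40 pathway genes tested at the TSS this held at 2, Pkia and Pkig, and the reverse at 0. The shares of all tested genes were 5.23% and 0.157%. Values of Pkia at equal peak numbers or relative to covered length are not given here.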

How the data were processed

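H4K12ac ChIP-Seq of sorted hippocampal neuronal nuclei was available as 1 peak list per mouse. Per the study's methods the authors mapped reads to mm10 with STAR and removed duplicates with SAMtools, and per the file headers they called peaks with MACS2 2.1.0.20140616 at q below 0.1 against an input pooled per genotype. The deposited lists give pileup (a coverage signal), fold enrichment as a ratio over background, and −log10 of each peak's p-value and q-value. That background can be local or the list's genome-wide level. At the strongest TSS peak of Adcy3 and Adcy5 it was the genome-wide level in every list. The labels name male C57BL/6J mice and the methods both sexes of a related substrain. The authors compared genotypes on read counts, which were not used here, so peaks were compared instead. Low fold enrichment below the authors' threshold leaves no peak and scores 0.

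Gene positions were taken from GENCODE on GRCm38 (55413 genes). Rank score, coverage, gene body (genes longer than 4 kb) and merged regions were computed as given in the report, in Python 3.11.15. Genotypes were compared with limma 3.58.1 in R 4.3.3 (with trend for coverage), without a replicate block, over all features with a peak in at least 2 lists, with Benjamini-Hochberg adjustment at 0.05. The scripts were tested on simulated data. The number of tags per list limits precision through the peak threshold. Alternatives were ranking by pileup, a stricter q threshold (0.01), the 64245 strongest peaks of each list, a 1-kb window, all annotated starts, coverage per Mb, other empirical Bayes settings, a replicate block, lane (from file names) as covariate, a peak in at least 5 lists, and leaving out each mouse. All 10 genes were named, with scores or list counts of the strongest body region of each and with every region that passed. Scores of regions in the TSS window were given for Adcy3, Prkar1b and Prkacb only. Of other pathway genes, the one in each direction with the smallest p in TSS rank score was named, and Akap1 and Pkia after their values were seen. The genes and lists were chosen with earlier results of these data known. Labels do not say whether mice of a genotype came from separate litters, and p-values measure the spread between these samples. The sequence and position of the Adcy3 region are not reported here.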

Additional observations from a re-analysis of the deposited data

Results flagged for a closer look

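In 6 of 80 groups of 5 values (10 genes, 4 measures, 2 genotypes) the highest or lowest mouse stood apart from the other four by Dixon's criterion, which chance meets in about 1 of 20 groups. In 4 of the 6 it was a Tip60cKO mouse with a low value. Tip60cKO mouse 5 had a TSS coverage of 17.1% at Prkacb, against 27.6 to 30.1% in the other four. The same mouse had a body rank score of 0 at Adcy8, against 68.0 to 73.9. Tip60cKO mouse 4 had a body rank score of 0 at Prkaca, against 62.1 to 77.2, and Tip60cKO mouse 2 had 0 at Prkar2b, against 69.8 to 79.0. Among controls, mouse 2 was low in body rank score at Prkaca, 65.99 against 74.3 to 76.8, and mouse 5 was high in body coverage at Adcy5, 4.22% against 2.40 to 2.82%.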

How the results depend on the processing

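None of the 10 genes passed limma's adjusted threshold in any of the 4 gene measures under any alternative run, in up to 190 gene values per measure (10 genes in each alternative fit). The count of genotypes without overlap in TSS coverage went from 1 (Adcy2) to 0 once every list was limited to equal peak numbers, and in body coverage from 0 to 1 (Prkar2b). Before that limit, 5.23% of all tested genes were lower and 0.157% higher without overlap in TSS coverage. In body coverage these shares were 3.96% and 0.0468%. Shares at equal peak numbers are not given here, so the counts of 1 are a description only. The Adcy3 region was the 1 region that passed. The count became 0 with the same number of peaks (the region was then not tested), with trend and robust settings (adjusted p = 0.258) and with the replicate block (adjusted p = 0.0767). Leaving out 1 mouse gave 1 to 2 regions and an adjusted p of 0.00170 to 0.00831 in limma for the Adcy3 region. Every such run kept a peak in all remaining controls and in no Tip60cKO mouse. Its difference stayed at -59.3 points whichever Tip60cKO mouse was left out. These runs therefore add nothing to the call of the Adcy3 region. The second region was in Adcy2 without Tip60cKO mouse 5, in Prkacb (higher) without control mouse 1 and in Adcy3 without control mouse 5.

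Signs turned as follows, each without passing the test. Ranking by pileup gave -0.41 at Adcy1 (TSS) and 0.459 at Prkar1b (body). A threshold of q below 0.01 gave a TSS coverage of -1.0 points at Prkar2b. The same number of peaks gave TSS coverage 0.300 at Prkacb and body coverage 0.0453 at Adcy1, 0.134 at Adcy9 and 0.0241 at Prkacb. Coverage per Mb, with Tip60cKO mouse 5 and its short list included, gave at the TSS 0.0342 at Adcy1, 0.116 at Adcy8, 0.191 at Adcy5, 0.111 at Adcy9, 0.127 at Prkaca, 0.127 at Prkacb and 0.142 at Prkar1b, and in the body 0.00950 at Adcy1 and 0.00469 at Prkacb. Leaving out 1 mouse gave TSS rank scores of -0.011 to 2.95 at Adcy5, -0.788 to 1.84 at Prkaca and -3.25 to 1.4 at Prkar1b. It gave TSS coverage of -4.16 to 2.63 at Prkaca, -2.74 to 1.42 at Prkacb, -5.50 to 1.86 at Prkar1b and -2.33 to 2.04 at Prkar2b. Body rank score ran from -2.22 to 0.50 at Prkacb, and body coverage from -0.531 to 0.365 at Adcy1, -0.425 to 1.13 at Adcy3, -0.894 to 0.0205 at Adcy9, -0.560 to 0.397 at Prkacb and -0.385 to 1.39 at Prkar1b. Within lanes, 13 of 40 gene values had opposite signs in lane 7 and lane 8, which were 2 of 10 in TSS rank score, 4 in TSS coverage, 2 in body rank score and 5 in body coverage. At the TSS they were Adcy5 and Prkaca in rank score and the 4 PKA genes in coverage (1.77 to 4.80 points in lane 7 and -9.21 to -4.75 in lane 8). In the body they were Adcy5 and Prkar1b in rank score and these 2 with Adcy1, Adcy3 and Prkacb in coverage (0.388 to 1.66 and -1.36 to -0.415 points). The cause of these turns was not tested.

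Counts over all features depended strongly on the setting. TSS rank score gave 51 calls, 35 to 86 over the other settings and 57 to 101 without 1 mouse. TSS coverage gave 322, from 0 (replicate block) to 710 (same number of peaks), and 27 to 1082 without 1 mouse. Body rank score gave 24 (8 to 29, and 31 to 54 without 1 mouse), body coverage 17 (0 to 65, and 0 to 83), and regions 814 (254 to 1162, and 931 to 1411). Mice of the 2 genotypes with the same number correlated at -0.0375 to 0.0552 in their deviations, and 3 of 5 Tip60cKO mice matched their own number best, so the numbers were not taken as pairs. The replicate block changed no call of a gene among the 10.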
